A study of Mus musculus with 12 samples.

Results

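The genes described here in newly generated and other T cells of the mouse thymus are 8 genes of cholesterol synthesis and its control: Hmgcs1, Sqle, Idi1, Fdft1, Fdps, Cyp51, Insig1 and Srebf2. They were chosen by symbol for their place in the pathway, and all 8 were found among the 13207 genes listed. The first 6 of them encode enzymes of sterol synthesis, and Insig1 and Srebf2 encode proteins that control these enzymes. None of the 8 encodes an uptake receptor, so uptake was read from a separate list of genes.

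RNA was sequenced from CD4+ thymocytes sorted from C57BL/6 mice 7 days after an intraperitoneal dose of 10 μg tamoxifen per g body weight. There were 4 groups of 3 libraries each. CD73+ newly generated regulatory T cells (Treg) were tdTomato+GFP+CD73+, and CD73- newly generated Treg were tdTomato+GFP+CD73-. tdTomato- Treg were tdTomato-GFP+ and were not divided by CD73, an ectoenzyme that makes adenosine, and newly generated conventional T cells (Tconv) were tdTomato+GFP-CD73-. tdTomato marks cells that were labelled after tamoxifen, and GFP is taken to report Foxp3, the transcription factor that defines Treg. All 4 groups came from tamoxifen-treated mice, so no group is untreated. The driver of the tdTomato label is not given in the sources used here. Library titles carry the letters A, B and D, used as replicate names. Nothing in the labels ties each library to an animal of its own, so a p-value here sets a difference against library-to-library spread, part of which may be technical.

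Cells make cholesterol from acetyl-CoA through mevalonate, the isoprenoids and squalene. The transcription factor SREBP2, encoded by Srebf2, is held in the endoplasmic reticulum together with SCAP by INSIG proteins while sterols are plentiful. When sterols fall, SCAP carries SREBP2 to the Golgi, where proteases release its active part, which switches on the genes of the pathway, Insig1 and Srebf2 among them. T cells that are activated and divide raise sterol synthesis, and the mevalonate pathway is known to be needed for the suppressive function of Treg.

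In the GRCm38 assembly (GENCODE M21), the 8 protein-coding genes lie at chr13:119690379-119708260 (Hmgcs1, + strand), chr15:59315077-59331192 (Sqle, +), chr13:8885501-8892451 (Idi1, +), chr14:63145150-63179578 (Fdft1, -), chr3:89093588-89101959 (Fdps, -), chr5:4081145-4104746 (Cyp51, -), chr5:28071363-28078662 (Insig1, +) and chr15:82147181-82205379 (Srebf2, +). Upstream sequence from RefSeq (GRCm38.p6) was matched for 5 of the 8 genes: Hmgcs1, Idi1, Cyp51, Insig1 and Srebf2. The windows of Hmgcs1, Insig1 and Srebf2 are shown because these genes passed the test between tdTomato- Treg and Tconv. Each line is written 5′ to 3′ on the strand of the gene and ends before both the RefSeq and the GENCODE start, with capitals on the core of a sterol regulatory element (TCACNCCA on either strand), to which SREBP proteins bind, and on the CCAAT box (either strand), to which NF-Y, a partner of SREBP, binds.
Hmgcs1, chr13:119690101-119690350, + strand: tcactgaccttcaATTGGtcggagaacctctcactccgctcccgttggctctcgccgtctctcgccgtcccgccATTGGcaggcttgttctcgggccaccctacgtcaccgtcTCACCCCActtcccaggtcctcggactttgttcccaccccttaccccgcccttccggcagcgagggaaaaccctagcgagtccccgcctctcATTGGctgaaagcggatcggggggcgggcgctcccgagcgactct
Insig1, chr5:28071162-28071362, + strand: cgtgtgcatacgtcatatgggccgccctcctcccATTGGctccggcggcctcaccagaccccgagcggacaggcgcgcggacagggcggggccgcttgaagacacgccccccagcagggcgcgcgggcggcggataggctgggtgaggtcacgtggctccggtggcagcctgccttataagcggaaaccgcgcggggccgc
Srebf2, chr15:82147019-82147180, + strand: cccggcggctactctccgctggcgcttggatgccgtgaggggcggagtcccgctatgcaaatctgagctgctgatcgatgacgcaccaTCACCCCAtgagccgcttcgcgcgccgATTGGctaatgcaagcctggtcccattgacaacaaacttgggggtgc
Within 250 bases before the RefSeq start, the sterol element core was found 1 time each for Hmgcs1 (its first base 137 bases before the start) and Srebf2 (162 bases before), and not for Insig1, Idi1 or Cyp51. That core stands in 3.67% of 32817 such mouse windows. The CCAAT box was found for all 5 genes, against 33.8% of windows, and 1.29% of windows hold both motifs. For Idi1 and Cyp51 the box lies only between the GENCODE and the RefSeq start, so not before both starts. The motif letters were chosen with these sequences in view, the pair of motifs does not overlap in these windows, and a match of letters describes the sequence only.

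Levels are deposited log2 CPM, that is counts scaled to a common library size, on a log2 scale. The 6 libraries of newly generated Treg were scaled in one table and the 6 libraries of tdTomato- Treg and Tconv in another, so tests were made only within a table and levels set across tables are descriptions. Each library held an effective 11000000 to 21400000 counts. All 8 genes lay above 3 counts in all 12 libraries and passed the filter on low values, a log2 CPM of 0 or more in 3 or more libraries. The sorting markers followed the labels. Foxp3 averaged 9.11 log2 CPM in tdTomato- Treg and 0.18 in Tconv, and Nt5e, which encodes CD73, averaged 7.29 in CD73+ Treg and 5.54 in CD73- Treg. Since these are bulk samples, fewer cells that express a gene and less RNA of it per cell cannot be told apart.

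In CD73+ against CD73- newly generated Treg, none of the 8 genes passed the test. Srebf2 came nearest: it was 1.13-fold higher in CD73+ Treg, higher in each of the 3 letters, and its libraries did not overlap. Among all 11170 genes tested 2.47% passed, 1.78% as higher and 0.689% as lower in CD73+ Treg, and in 18.2% the libraries of the groups did not overlap, against 1 of the 8. These are 199 genes higher and 77 lower, or 163 and 114 with each library centred on its median, and with the letter as a replicate block 658 genes passed in all, still none of the 8. The median log2 fold change of the 8 genes was 0.02, beside 0.01 over all genes tested, and 1 of the 8 had an unadjusted limma p under 0.05. The comparison asks whether the cells that carry CD73 differ from those that lack it among Treg generated over the same days.

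Srebf2, the gene of the master regulator, was measured at 7.25, 7.18 and 7.23 log2 CPM (letters A, B and D) in CD73+ Treg, against 7.08, 7.08 and 6.99 in CD73- Treg. The 3 CD73+ libraries all lay above the 3 CD73- libraries. The difference was 0.17 (log2; SE 0.06, 95% interval 0.05 to 0.29), with a limma p of 0.0093 unadjusted and 0.14 adjusted over all genes by the Benjamini-Hochberg method, so it did not pass the threshold of 0.05. Within letters the difference was 0.17 in A, 0.10 in B and 0.24 in D. The adjusted p for Srebf2 lay between 0.0729 and 0.338 over the 21 alternative settings.

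Insig1, which encodes an endoplasmic reticulum protein that retains SCAP and SREBP2 when sterols are plentiful, averaged 4.44 ± 0.13 log2 CPM in CD73+ Treg and 4.49 ± 0.15 in CD73- Treg (SD, n = 3 each). Its difference was -0.06 (log2; 95% interval -0.28 to 0.16, adjusted p = 0.83 by limma). The groups overlapped, and the interval leaves out a change of 1.5-fold in either direction on the log2 scale of the fit.

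Among the enzymes, Hmgcs1, which makes HMG-CoA at the entry of the pathway, averaged 5.07 ± 0.28 log2 CPM in CD73+ Treg and 5.15 ± 0.06 in CD73- Treg (SD, n = 3 each), a difference of -0.08 (95% interval -0.32 to 0.16). For Fdps, which makes farnesyl diphosphate, the branch point to sterols and to prenylated proteins, the means were 3.41 ± 0.13 in CD73+ Treg and 3.20 ± 0.32 in CD73- Treg, with a difference of 0.21 (-0.14 to 0.55). The widest interval belonged to Sqle, which makes squalene epoxide, with 2.60, 3.16 and 1.44 log2 CPM in CD73+ Treg and 2.08, 2.85 and 1.56 in CD73- Treg. Sqle had an SD of 0.88 among CD73+ and 0.65 among CD73- Treg libraries, more than the difference of 0.24 between them (-0.52 to 1.0, limma adjusted p = 0.79). About 32 to 138 counts stood behind each Sqle value, which gives a counting SD of 0.12 to 0.26 log2 units. Idi1, an isomerase of the isoprenoid units, Fdft1, which makes squalene, and Cyp51, a lanosterol demethylase, differed by -0.02, 0.01 and 0.04, all inside the spread of their libraries. Each of these 3 had an interval that reached at least 0.32 in both directions, so changes of that size would not have been resolved.

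**Figure D1:**
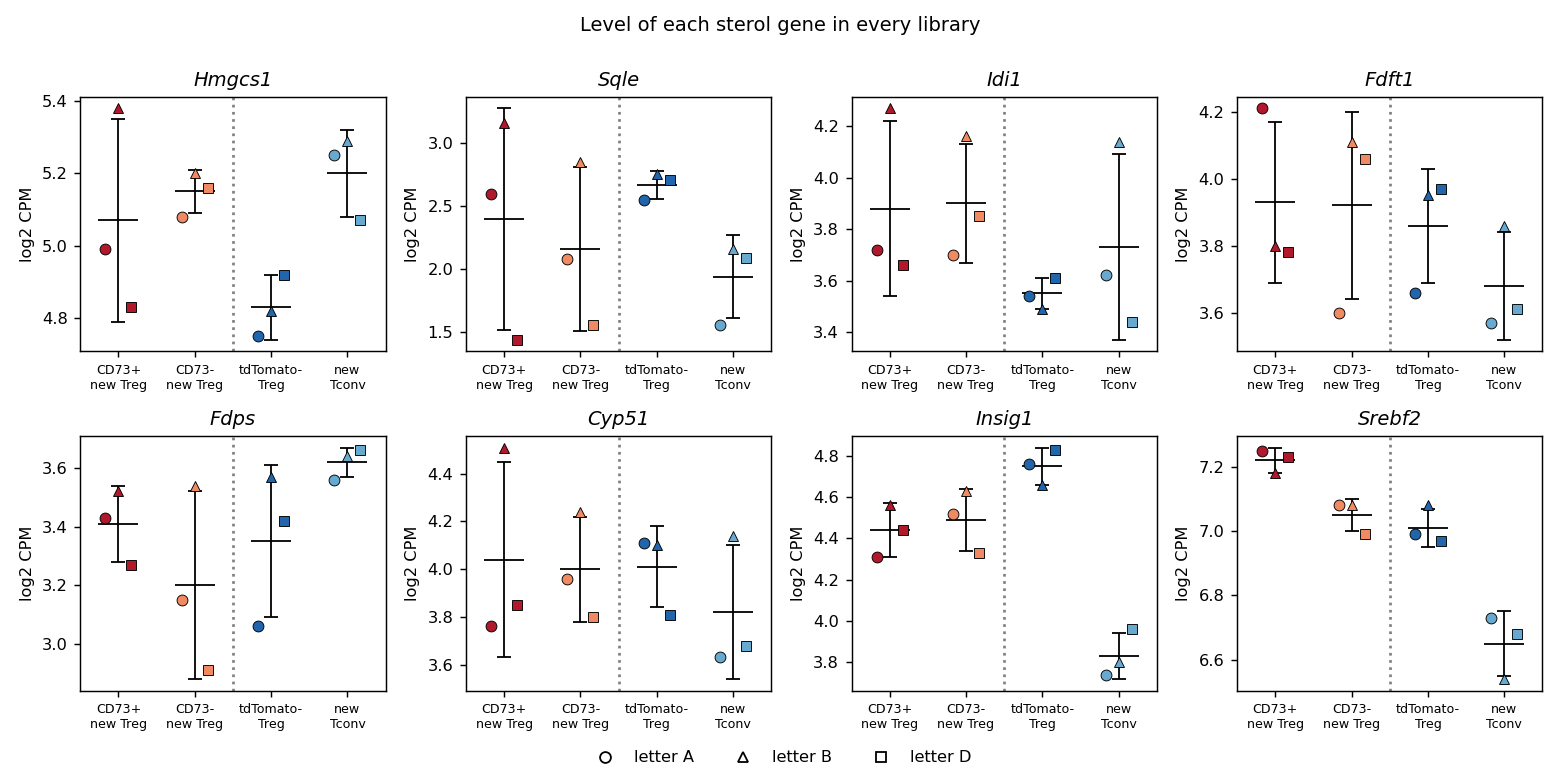
Level of each of the 8 genes in every library, in log2 CPM, with a panel per gene and its own vertical scale. Points are libraries, the marker shape gives the letter of the title, horizontal lines are means and bars are SD (n = 3); the dotted line separates the tables that were scaled separately. Insig1 and Srebf2 sit higher in all 3 tdTomato- Treg libraries than in all 3 Tconv libraries, Hmgcs1 sits lower, and Sqle runs from 1.44 to 3.16 within CD73+ Treg.

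Between tdTomato- Treg and Tconv, 3 of the 8 genes passed the test, and they did not move in the same direction. Insig1 was 1.89-fold higher and Srebf2 1.29-fold higher in tdTomato- Treg, while Hmgcs1 in tdTomato- Treg stood at 0.772 of its level in Tconv. No other enzyme of the 6 passed. These groups differ in Foxp3, in the tdTomato label and in the CD73 gate, which Tconv passed as CD73- and tdTomato- Treg were not put through. The contributions of lineage, of being labelled or unlabelled and of the CD73 gate cannot be told apart. Among all 11198 genes tested 52.1% passed, 26.4% as higher and 25.7% as lower in tdTomato- Treg, and in 60.9% the libraries of the groups did not overlap. Beside this background, 3 of 8 past the threshold and 4 of 8 without overlap are no larger shares than those of genes at large. The median of the 8 was 0.19, beside -0.01 over all genes.

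Insig1 was measured at 4.76, 4.66 and 4.83 log2 CPM (A, B and D) in tdTomato- Treg, against 3.74, 3.80 and 3.96 in Tconv. All 3 tdTomato- Treg libraries lay well above all 3 Tconv libraries. The log2 fold change was 0.92 (SE 0.10, 95% interval 0.69 to 1.14, limma adjusted p = 1.4e-06), with 1.02, 0.86 and 0.87 within letters A, B and D. It was past the threshold under all 21 alternatives.

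For Srebf2 the levels were 6.99, 7.08 and 6.97 log2 CPM in tdTomato- Treg, against 6.73, 6.54 and 6.68 in Tconv. All 3 tdTomato- Treg libraries were above all 3 Tconv libraries. The log2 fold change was 0.36 (SE 0.06, 95% interval 0.24 to 0.48, limma adjusted p = 5.1e-05), and it held its side of the threshold under all 21 alternatives.

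Hmgcs1 was measured at 4.75, 4.82 and 4.92 log2 CPM in tdTomato- Treg, against 5.25, 5.29 and 5.07 in Tconv. Here every tdTomato- Treg library was below every Tconv library. The log2 fold change was -0.37 (SE 0.11, 95% interval -0.61 to -0.13, limma adjusted p = 0.011), and within letters it was -0.50, -0.47 and -0.15. Over the 21 alternatives its adjusted p lay between 0.00147 and 0.0453.

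Sqle was measured at 2.55, 2.76 and 2.71 log2 CPM in tdTomato- Treg, against 1.56, 2.16 and 2.09 in Tconv. Its libraries did not overlap between these groups, yet its log2 fold change of 0.74 (SE 0.36, 95% interval -0.03 to 1.5) did not pass (limma adjusted p = 0.10). The shared estimate of the spread includes the newly generated Treg libraries, in which Sqle varied most. In a fit of the tdTomato- Treg and Tconv libraries alone its adjusted p was 0.00602, and in the authors' deposited table it was 0.006. Leaving out the CD73+ Treg library of letter D gave 0.0385.

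The remaining 4 enzymes did not pass. Fdps averaged 3.35 ± 0.26 log2 CPM in tdTomato- Treg and 3.62 ± 0.05 in Tconv (difference -0.27, 95% interval -0.62 to 0.08), and it was lower in all 3 letters. Fdft1 averaged 3.86 ± 0.17 in tdTomato- Treg and 3.68 ± 0.16 in Tconv (difference 0.18, -0.15 to 0.51), and it was higher in all 3 letters. The groups overlapped for Fdps, Fdft1, Idi1 and Cyp51. Fdps passed under 1 of the 21 alternatives, quantile normalisation, with an adjusted p of 0.0445.

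**Figure D2:**
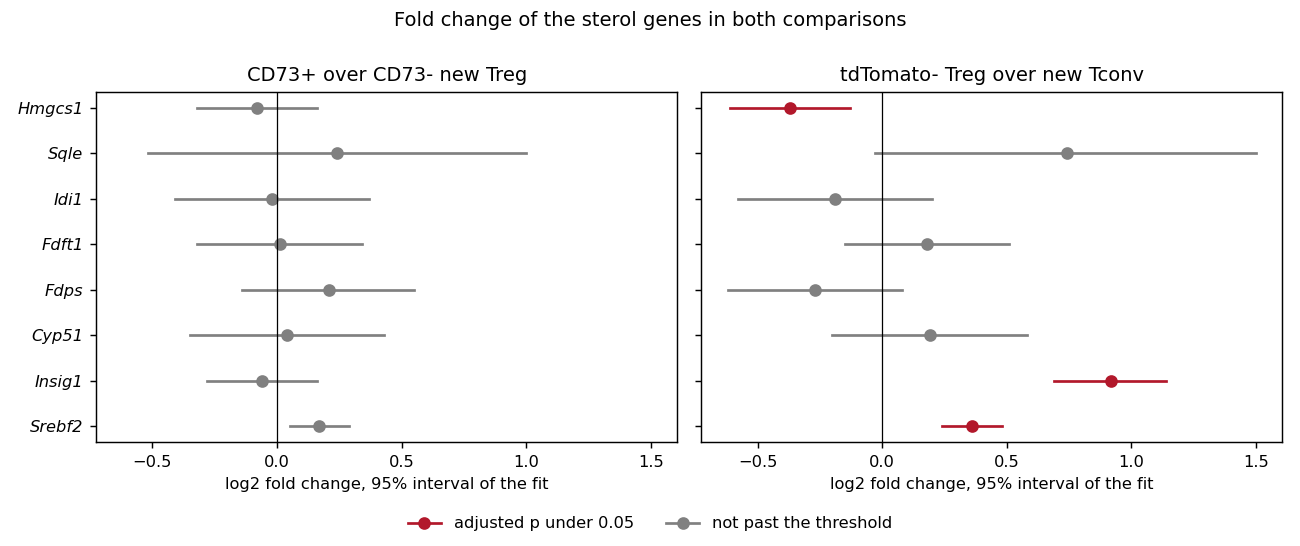
Log2 fold change of each gene, with the 95% interval of the fit, in CD73+ over CD73- newly generated Treg (left) and tdTomato- Treg over Tconv (right). Red points are past an adjusted p of 0.05; on the left there are none, and on the right Insig1 (0.92) and Srebf2 (0.36) are higher and Hmgcs1 (-0.37) is lower.

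The order of the 4 groups differed from gene to gene. Insig1 was highest in tdTomato- Treg (4.75 ± 0.09), followed by CD73- Treg, CD73+ Treg and Tconv, and only its neighbours CD73- and CD73+ Treg lay within the larger of their SDs. Srebf2 was highest in CD73+ Treg (7.22 ± 0.04) and lowest in Tconv (6.65 ± 0.10), with CD73- Treg (7.05 ± 0.05) and tdTomato- Treg (7.01 ± 0.06) within their SDs of each other. For Hmgcs1, Sqle, Idi1 and Cyp51, each group lay within the larger SD of the next in order. Fdps was highest in Tconv, which lay 0.21 above CD73+ Treg, and Fdft1 was lowest in Tconv, 0.18 below tdTomato- Treg. Every gap of this kind between the tables is set by 2 separate scalings and was not tested.

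Cell cycle genes differed between tdTomato- Treg and Tconv, and their values stand beside the sterol genes here. Of 12 cell cycle genes, 10 fell and 1 (Tk1, thymidine kinase) rose in tdTomato- Treg, against 25.7% lower and 26.4% higher of all genes, and the summed CPM of the 12 was 369 to 394 in tdTomato- Treg and 718 to 838 in Tconv. Top2a, a topoisomerase of dividing cells, had a log2 fold change of -1.98 (SE 0.21, limma adjusted p = 6.9e-07). Of 7 immediate early genes tested, which respond within minutes to receptor signals and to handling of tissue, 4 rose and 1 fell, with summed CPM of all 8 listed at 1640 to 2930 in tdTomato- Treg and 596 to 1390 in Tconv. In CD73+ against CD73- Treg, 1 of the 12 cell cycle genes passed, Tk1 (0.78, limma adjusted p = 0.013). Of all genes 1.78% passed there as higher and 0.689% as lower. With the letter as a replicate block, where more of all genes passed too, or without CD73- Treg B, 4 of the 12 passed. All were higher in CD73+ Treg, and none passed without CD73+ Treg B. The summed CPM of the 12 was 304 to 383 in CD73+ Treg and 223 to 336 in CD73- Treg. Markers of other cells also differed between these groups, beside 5 Treg markers that summed to 4320 to 4460 CPM in tdTomato- Treg and 223 to 235 in Tconv. Summed CPM was 6.02 to 7.60 in tdTomato- Treg and 2.39 to 3.36 in Tconv for B cell markers, with 1 of 2 tested higher. For thymic epithelium it was 5.63 to 7.69 in tdTomato- Treg and 2.45 to 2.81 in Tconv, with the 1 marker tested higher. Erythroid markers summed to 91.0 to 144 in tdTomato- Treg and 67.2 to 107 in Tconv, with 2 of 5 higher. Other lists were mixed within themselves. Myeloid markers summed to 22.9 to 33.0 in tdTomato- Treg and 17.5 to 18.6 in Tconv, with 2 of 4 tested higher and 1 lower. Markers of CD8 and double-positive thymocytes summed to 40.0 to 50.1 in tdTomato- Treg and 33.7 to 35.1 in Tconv, but their median log2 fold change was -0.45, with 2 of 5 tested higher (Rag1 and Arpp21) and 1 lower (Cd8b1). Markers of stroma and endothelium summed to 154 to 184 in tdTomato- Treg and 168 to 180 in Tconv, most of it Pecam1 (means of 7.38 and 7.43 log2 CPM). Of 2 tested, 1 was higher, Col1a2, at 0.44, 0.60 and 0.48 log2 CPM in tdTomato- Treg (A, B and D). Col1a2 had no count in any Tconv library and was not listed for newly generated Treg. It met the filter only through the group where it was high, so its call is a description only. Cdh5 of the same list went the other way and was not tested. Cdh5 had no count in any tdTomato- Treg library and stood at 1.24, -0.37 and 0.12 log2 CPM in Tconv (A, B and D). In CD73+ against CD73- Treg the markers of CD8 and double-positive thymocytes summed to 22.3 to 27.5 in CD73+ Treg and 30.0 to 75.5 in CD73- Treg, with 1 of 5 lower in CD73+ Treg (Aqp11, at 1.46 log2 CPM in CD73+ Treg and 2.46 in CD73- Treg on average, limma adjusted p = 0.032). That call was lost without any 1 of CD73+ Treg A, B and D, CD73- Treg A and B, and tdTomato- Treg B, with adjusted p between 0.0503 and 0.121. No other list of markers of other cells had a gene past the threshold in that comparison. The part of division, of handling or of other cells in the sterol values was not tested.

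Other genes of the pathway were grouped by role. Across the sterol, isoprenoid and fatty acid genes, 65 besides the 8 were listed and 61 were tested. In CD73+ against CD73- Treg none of the 61 passed, with 6 at an unadjusted p under 0.05 in limma. With the letter as a replicate block 1 passed, Fasn, the fatty acid synthase, with 7.12, 7.21 and 7.00 log2 CPM in CD73+ Treg and 6.95, 6.71 and 6.80 in CD73- Treg. All 3 CD73+ libraries of Fasn lay above all 3 CD73- libraries (log2 fold change 0.29, limma adjusted p = 0.0255 with the block, and SE 0.08 and adjusted p = 0.086 without it), and without the Tconv library of letter B its adjusted p was 0.0258. Between tdTomato- Treg and Tconv 13 were higher and 17 lower in tdTomato- Treg, 49.2% in all, against 52.1% of all genes.

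In the segment from acetyl-CoA to squalene, 2 of 8 genes were lower in tdTomato- Treg than in Tconv and none was higher, against 25.7% of all genes lower and 26.4% higher. The pair was Hmgcs1 and Acat2, which makes acetoacetyl-CoA, the substrate of the Hmgcs1 enzyme. Acat2 was measured at 3.06, 3.42 and 3.22 log2 CPM in tdTomato- Treg and 3.79, 3.61 and 3.61 in Tconv. All 3 tdTomato- Treg libraries were below all 3 Tconv libraries, with a log2 fold change of -0.44 (SE 0.14, limma adjusted p = 0.014). Without the tdTomato- Treg library of letter A the adjusted p for Acat2 was 0.0719, and without the Tconv library of letter A it was 0.0612.

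In the segment from squalene to cholesterol, 2 of 11 genes were higher and 1 was lower in tdTomato- Treg, against 26.4% higher and 25.7% lower of all genes. The median of the 11 was 0.25. Sc5d, a sterol desaturase, was measured at 5.35, 5.42 and 5.18 log2 CPM in tdTomato- Treg and 4.63, 4.88 and 4.63 in Tconv. These libraries did not overlap, and the log2 fold change was 0.60 (SE 0.11, limma adjusted p = 1.7e-04). Dhcr7, which takes the last step of one branch to cholesterol, was lower, at -0.32 (SE 0.09, adjusted p = 0.0052).

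Among 11 genes that control SREBP, 4 were higher and none lower in tdTomato- Treg, against 26.4% higher and 25.7% lower of all genes. Insig1 and Srebf2 were among the 4, as was Rnf139, a ubiquitin ligase of the endoplasmic reticulum, with a log2 fold change of 0.17 (limma adjusted p = 0.043). The Rnf139 call was lost in 7 of the 21 alternatives, with an adjusted p of 0.134 after median centring, 0.0877, 0.0689 and 0.121 without tdTomato- Treg A, B or D, and 0.156 and 0.088 without Tconv A or D. Insig2, Scap, Srebf1 and the 2 protease genes Mbtps1 and Mbtps2 did not pass.

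Of 9 uptake and transport genes tested, 2 were higher and 6 lower in tdTomato- Treg, against 26.4% higher and 25.7% lower of all genes. Their median was -0.30. Stard4, a sterol carrier, rose (0.38, SE 0.15, limma adjusted p = 0.036). The Stard4 call was lost in 8 of the 21 alternatives. Among these were the fits that left out tdTomato- Treg B (adjusted p = 0.171) or D (0.0543), or Tconv A (0.0845) or D (0.0843). Lrp8, a lipoprotein receptor, fell, with 3.23, 3.41 and 3.42 log2 CPM in tdTomato- Treg and 4.32, 4.49 and 4.38 in Tconv (-1.04, SE 0.14, adjusted p = 1.1e-05). Mylip, a ligase that removes lipoprotein receptors, fell by 0.90 on the log2 scale. Npc2 and Lipa, which free cholesterol in the lysosome, fell by 0.58 and 0.45.

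Of 6 genes of sterol efflux, esterification and the liver X receptors that were tested, 2 rose in tdTomato- Treg and none fell. Over all genes 26.4% rose and 25.7% fell. Soat1, which esterifies cholesterol for storage, was measured at 6.87, 6.86 and 6.84 log2 CPM in tdTomato- Treg and 6.15, 6.20 and 6.15 in Tconv, a log2 fold change of 0.69 (SE 0.06, limma adjusted p = 7.6e-08). For Abca1, a cholesterol exporter, the values were 8.39, 8.13 and 8.22 in tdTomato- Treg and 7.85, 7.24 and 7.67 in Tconv, a log2 fold change of 0.66 (SE 0.16, adjusted p = 0.0029). Neither gene overlapped between these groups.

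In the branches that use isoprenoids for other products, 2 of 13 genes were higher and 5 lower in tdTomato- Treg, against 26.4% higher and 25.7% lower of all genes. Without tdTomato- Treg A or without tdTomato- Treg B, 1 of the 13 was higher and 3 were lower. The subunits of farnesyltransferase went in opposite directions, with Fnta higher (0.42, limma adjusted p = 0.0014) and Fntb lower (-0.53, adjusted p = 3.4e-04). Ggps1, which makes geranylgeranyl diphosphate, was lower at -0.26, and Pdss1, which makes the side chain of ubiquinone, was lower at -0.57. Among 11 fatty acid genes tested, 3 rose and 4 fell, beside those same shares of all genes. Acss2, which makes acetyl-CoA from acetate, had the greatest fall of the 4, at -0.99 (SE 0.10, adjusted p = 4.9e-07), and Scd2, a fatty acid desaturase, stood at -0.53 (adjusted p = 3.8e-08). Elovl1, a fatty acid elongase, was higher at 0.60, and Acaca, which makes malonyl-CoA, was higher at 0.45.

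**Figure D3:**
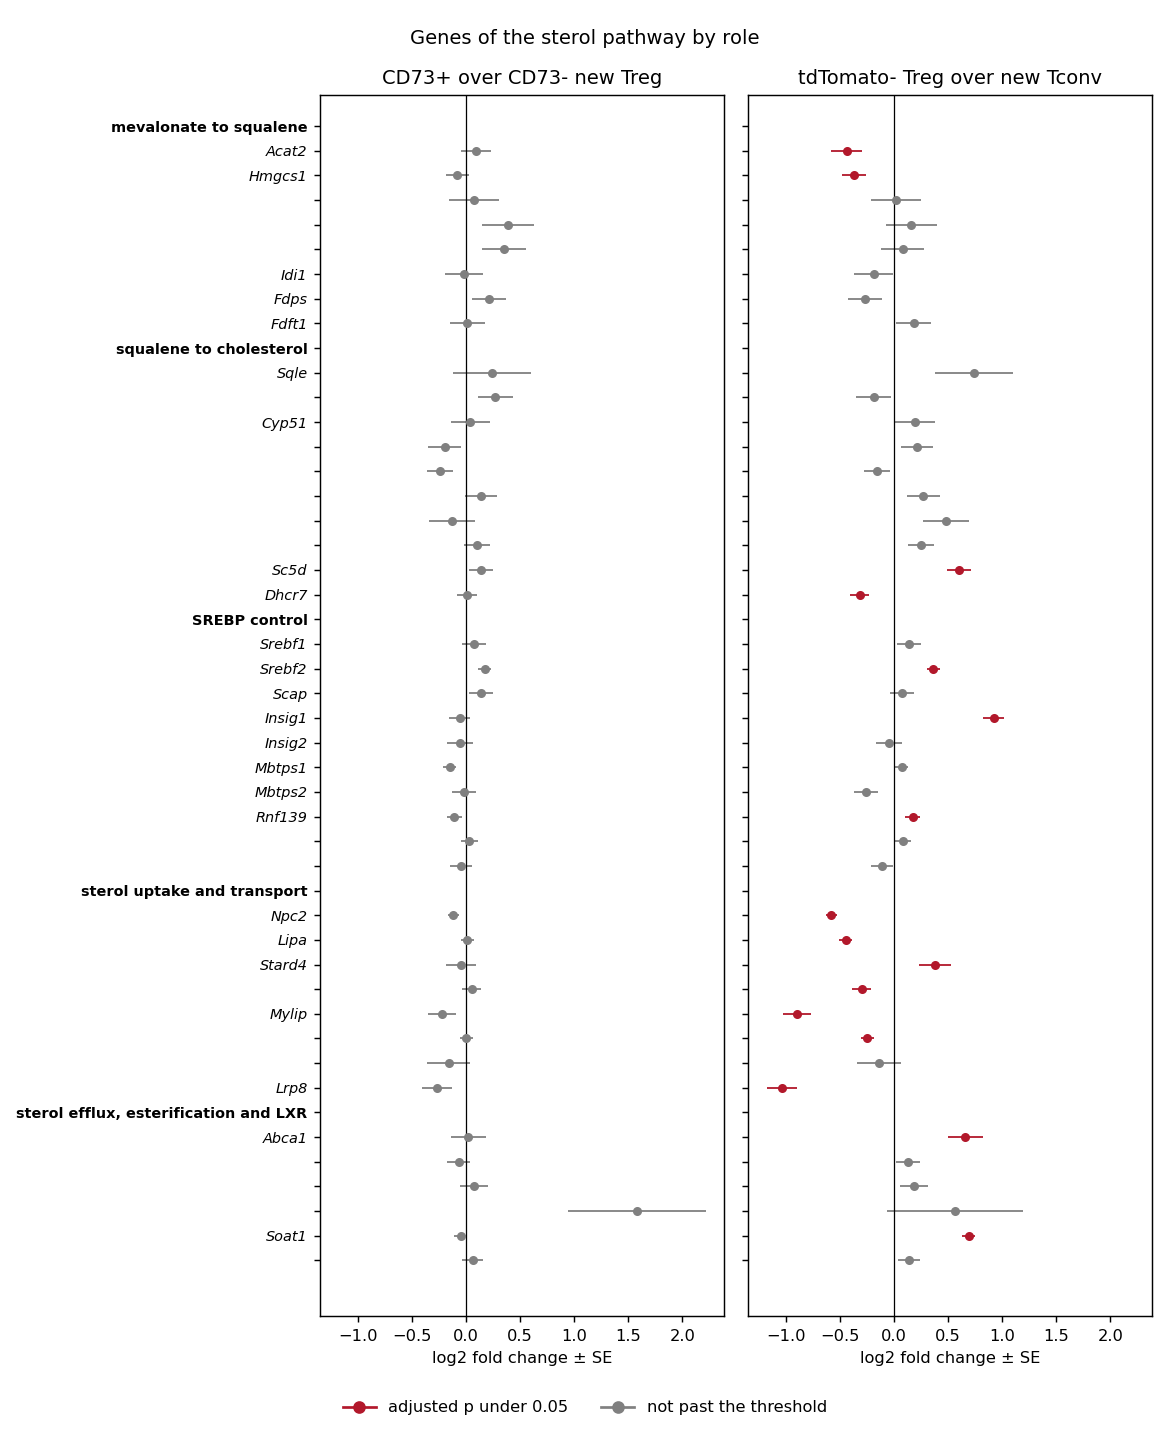
Log2 fold change with SE for most of the sterol genes tested, ordered by step and role, with names for those given in the text, in CD73+ over CD73- newly generated Treg (left) and tdTomato- Treg over Tconv (right). Red points are past an adjusted p of 0.05: none on the left, and on the right a mixture of higher genes (Insig1 at 0.92, Soat1 at 0.69) and lower genes (Lrp8 at -1.04, Mylip at -0.90).

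Libraries of 1 group were also compared by the letter in their titles. In CD73- Treg the library of letter B had the highest value for all 8 genes, tied with A for Srebf2. The same held for 6 of the 8 in CD73+ Treg, 3 in tdTomato- Treg and 5 in Tconv. Over all 11167 genes B was highest in 38.0% in CD73+ Treg, 35.5% in CD73- Treg, 34.2% in tdTomato- Treg and 40.4% in Tconv. The library of letter D was lowest for 5 of the 8 in CD73+ Treg, 5 in CD73- Treg, 2 in tdTomato- Treg and 2 in Tconv, against 31.6% to 33.8% of all genes. The high values in B were noticed first and then tested on the same libraries, by a limma F-test for the letter over all 4 groups. Of 11167 genes, 2.44% passed that test, and 0.627% passed it with B above the mean of A and D.

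One of the 8 genes passed, Cyp51, with B above the mean of A and D by 0.42 (log2; SE 0.09, adjusted p = 0.039). It was measured at 3.76, 4.51 and 3.85 log2 CPM (A, B and D) in CD73+ Treg, 3.96, 4.24 and 3.80 in CD73- Treg, 4.11, 4.10 and 3.81 in tdTomato- Treg and 3.63, 4.14 and 3.68 in Tconv. B was highest for Cyp51 in 3 of the 4 groups, tdTomato- Treg being the exception. The call rests on single libraries: over the settings that leave out 1 library its adjusted p lay between 0.00945 and 0.227, and it passed only without tdTomato- Treg A or B. The comparisons between groups kept their counts without the 4 libraries of letter B, with 0 of the 8 genes past the threshold between CD73+ and CD73- Treg and 3 between tdTomato- Treg and Tconv. The letter test of Cyp51 gave an adjusted p of 0.0503 after quantile normalisation and 0.257 with no intensity trend.

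Idi1 and Sqle had the next lowest p-values for the letter. For Idi1, B was above the mean of A and D by 0.37 (SE 0.10, limma adjusted p = 0.13), with 3.72, 4.27 and 3.66 log2 CPM in CD73+ Treg and 3.62, 4.14 and 3.44 in Tconv. Without the tdTomato- Treg library of letter B, Idi1 passed (adjusted p = 0.00865). For Sqle it was above by 0.66 (SE 0.21, adjusted p = 0.17), and by 1.14 within CD73+ Treg and 1.03 within CD73- Treg. The median over the 8 genes was 0.21, beside 0 over all genes. Srebf2 varied little within a group, with SDs of 0.04 to 0.10.

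Some other lists held genes past the letter test, which 2.44% of all genes passed, 0.627% with B above the mean of A and D. Of 6 tested genes of sterol efflux, esterification and the liver X receptors, 2 passed, both lower in B and so opposite to the direction of Cyp51. Abca1 in B was below the mean of A and D, with a difference of -0.44 (SE 0.05, limma adjusted p = 1.8e-05), and Abcg1, another sterol exporter, with a difference of -0.28 (SE 0.04, adjusted p = 0.00034). B was lowest for both genes in all 4 groups. Both passed whichever single library was left out, and neither passed with no intensity trend (0.105 for Abca1 and 0.185 for Abcg1). The summed CPM of the immediate early genes was lowest in letter B and highest in letter D in each of the 4 groups, for example 1360 in A, 900 in B and 2010 in D of CD73+ Treg, and 5 of 7 passed the letter test with none above in B. None of the 12 cell cycle genes passed it. Their summed CPM was highest in B in CD73+ Treg (321 in A, 383 in B and 304 in D), CD73- Treg (266, 336 and 223) and Tconv (718, 838 and 782), but not in tdTomato- Treg (370, 369 and 394). The labels do not say what the letters stand for, and the part of depth, handling or cell division in the pattern was not tested.

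**Figure D4:**
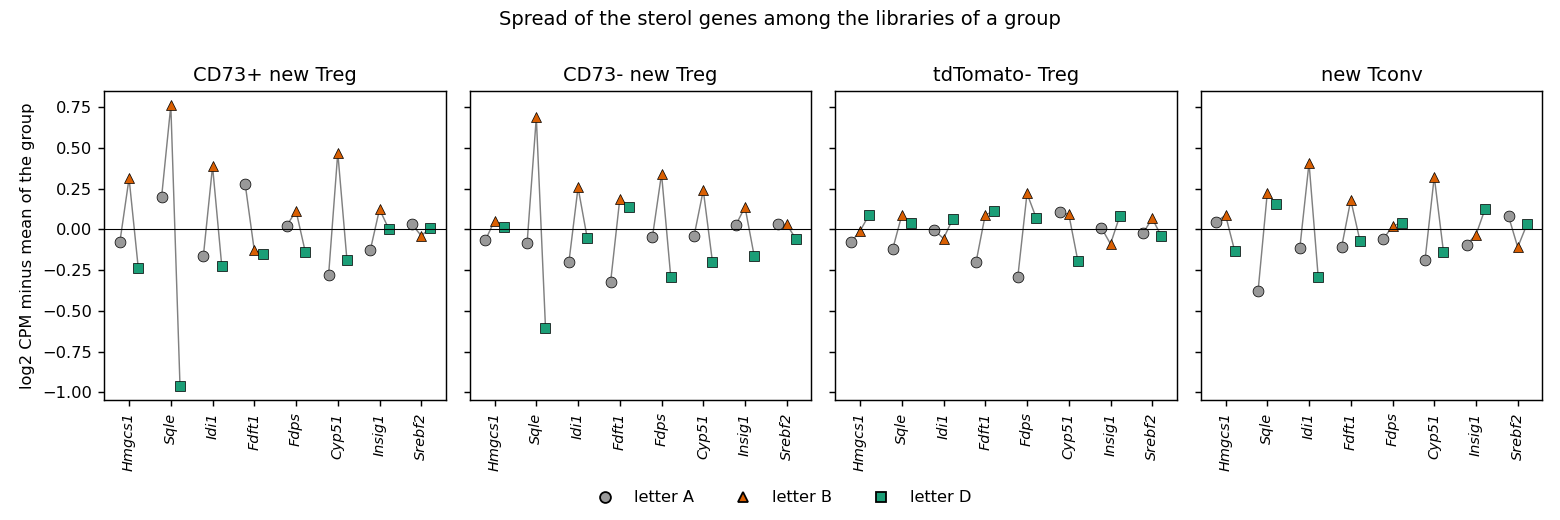
Each library's log2 CPM minus the mean of its group, for the 8 genes in the 4 groups, with lines that join the libraries of a group. Letter B (triangles) is highest for all 8 genes in CD73- Treg, tied with A for Srebf2, and for 6 in CD73+ Treg, and the range is widest for Sqle in the newly generated Treg.

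The genes whose pattern was most like that of the 8 were taken by the Pearson correlation over the 12 libraries between a gene and the mean of the 8, both centred within each table, among 9139 genes with a mean of at least 2 log2 CPM in both tables. Among the first 5 were Slfn9 (r = 0.98), Zfp455 (0.93), Larp4 (0.92) and Ddit4 (0.89). These are descriptions, since the libraries share tables, groups and letters. Larp4, an RNA-binding protein gene, was measured at 7.46, 7.66 and 7.34 log2 CPM in CD73+ Treg and 7.38, 7.60 and 7.40 in CD73- Treg, with B highest in both. Ddit4, an inhibitor of mTORC1 signalling, passed the letter test (B above the mean of A and D by 0.40, SE 0.06, limma adjusted p = 0.0028). Ddit4 and Larp4 were picked for likeness to a mean that was itself highest in B in the newly generated Treg. High values in B are therefore no separate evidence of a letter difference. The mean of the 8 genes themselves, centred within each table, ran from -0.20 in D to 0.28 in B of CD73+ Treg and from -0.18 in D to 0.21 in B of CD73- Treg.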

How the data were processed

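TRIzol was used to extract RNA and the KAPA RNA HyperPrep kit to make libraries, per the labels' protocols. STAR and RSEM, limma and mm10 appear in the submitters' processing notes, and which versions and options were used is not given in the sources used here. A merged pair of log2 tables was deposited by the authors, each of 6 libraries (13207 genes, 12410 of them in both). The unit, log2 CPM with 0.5 count added, was read from the values, since genes with no count in a library share its lowest value. That value also gives the depth: 3 counts lie at -2.61 to -1.65 on this scale, a floor for counting error alone. The authors also deposited log2 fold changes and p-values for each table.

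A single model of 4 group means was fitted to the 12 libraries with limma 3.58.1 in R 4.3.3, with an intensity trend. A gene was tested if it reached a log2 CPM of 0 in 3 or more libraries. All tests were two-sided, with Benjamini-Hochberg adjustment over every gene tested, and a gene passed with an adjusted p under 0.05. Levels are mean ± SD over 3 libraries. The fit was tested on simulated data with known changes. No pair of libraries of a group held the same values.

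The 8 genes and the lists were chosen with earlier results of these data known. Named genes are the 8, every member of a pathway list past the threshold between CD73+ and CD73- Treg, up to 3 per direction by p-value from each list between tdTomato- Treg and Tconv, and genes among the 5 nearest in pattern, of which 4 are given. Nt5e, Rnf139, Mylip, Fasn, Abcg1 and the marker genes other than those of the sorted cells, and the genes listed as not past the threshold, were named outside this rule, after their values were seen. Values of some genes of the pathway are not reported here.

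Whether letters pair libraries was checked by correlating, over 9942 genes, how same-letter libraries deviated from their own group's mean. For CD73+ with CD73- Treg the correlation was 0.146 (A), 0.266 (B) and 0.222 (D), all above 0.1, so the letters were taken to pair these libraries. The main fit does not use this pairing, since the labels do not say what the letters mark. Its SEs, intervals and p-values for CD73+ against CD73- Treg are therefore unpaired, and only the alternative with a replicate block takes the letter into account. The alternatives were no filter and a stricter one, a replicate block, a fit of only the 2 groups, quantile normalisation, median centring, no trend, leaving out each library, and the authors' table. The letter test, its alternatives and the fit without letter B were added after seeing the data.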

Additional observations from a re-analysis of the deposited data

How the results depend on the processing

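Over 21 alternatives, none of the 8 genes passed between CD73+ and CD73- Treg, and no named gene past the threshold changed sign. The number of all genes past it was 276, against 658 with the letter as a replicate block (389 higher, 269 lower), 151 in a fit of only the CD73+ and CD73- Treg libraries, 151 in the authors' deposited table, 107 with no intensity trend, and 101 to 393 when 1 library was left out. It was lowest without CD73+ Treg B (101) or A (105), CD73- Treg D (135) or A (161), and tdTomato- Treg A (172) or B (174). In the block, which left the 8 genes where they were, Top2a (adjusted p 0.0275), Mcm2 (0.0153) and Fasn (0.0255) passed. Tk1 did not pass without CD73+ Treg B (0.0714), without letter B (0.112), in the fit of only those groups (0.0969) or in the authors' deposited table (0.111).

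Between tdTomato- Treg and Tconv, libraries of the same letter correlated at 0.117 (A), 0.114 (B) and 0.0536 (D). These were not all above 0.1, so the letters were not taken as pairs there. A low correlation cannot show that libraries are unpaired, and immediate early sums were lowest in B and highest in D in both groups. The main fit is unpaired for this comparison too. With the block 6231 genes passed, against 5833, and Sqle passed (adjusted p 0.0331). Insig1, Srebf2 and Hmgcs1 passed under all 21 alternatives. Of the named calls, 40 single values no longer passed under an alternative and 5 newly passed; losses among sterol, isoprenoid and fatty acid genes included Stard4, Dhdds, Rnf139, Acat2 and Fasn.

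For the letter, 272 genes passed, against 32 with no intensity trend and 112 to 701 when 1 library was left out (139 without CD73+ Treg B, 144 without CD73+ Treg D, 112 without CD73- Treg B, 175 without CD73- Treg D and 701 without tdTomato- Treg B). Of the 8 genes 1 passed, against 0 after quantile normalisation, 0 with no trend and 0 to 2 when 1 library was left out. The causes of these changes were not tested. With 3 libraries a group, and tables scaled separately, small differences and differences across tables were not resolved.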
